A study of Mus musculus with 3 samples.

Results

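Collagens are the structural proteins of the extracellular matrix. Each is a triple helix of alpha chains, built from the product of a single gene or from the products of several, so genes whose chains assemble together are described together here. Fibrillar collagens give connective tissue its tensile strength. Type IV collagen forms the sheet of basement membranes, including the one on which the choroid plexus epithelium rests and that of the fenestrated capillaries in the stroma below it. Other families coat fibrils, span the plasma membrane, or form the open lattices known from the membrane below the corneal endothelium.

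Every array probe whose gene name had the form *Col*, number, *a*, number was taken, without regard to its signal, and control spots were left out. The rule gave 80 probes for 40 genes, of 41174 probes and 27845 gene names on the array. RefSeq accessions matched 61 of the 80 probes, and the other 19 kept the name in the scanner files. No collagen probe was saturated in either channel on any array, and no array value was left out as an outlier for any of them.

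RNA came from choroid plexus epithelium (CPE) cells of 3 healthy adult C57BL/6 mice, laser dissected from cryosections of the lateral ventricles, amplified and labelled with Cy5. On each mouse's array it was hybridised against the same reference RNA, taken from the RPE (retinal pigment epithelium) with choroid of C57BL/6 eyes and labelled with Cy3. The 3 mice form a single group, CPE, with no genetic alteration or treatment, and replicates are separate mice. Dyes were not swapped, so dye and tissue cannot be told apart in a ratio, and because a single reference RNA was used, no error below includes variation between eyes.

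The arrays differed in signal over background. The CPE signal was well above background for 58.5%, 46.0% and 85.6% of all probes in mice 1, 2 and 3, and for 51, 44 and 74 of the 80 collagen probes. The reference signal was above background for 71.0%, 68.6% and 84.2% of all probes and for 54, 53 and 73 collagen probes. The array of mouse 3 thus called more probes present in both channels, and 23 collagen probes were above background in CPE in mouse 3 alone.

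The dissected cells carried the markers of CPE. All 8 CPE markers on the array lay in the high expression class, and 7 of them were higher in CPE than in the reference. *Ttr* was saturated in CPE on 3 arrays and *Clic6* on 1, and the summed linear level of the other 6 was 77074 to 93015 in CPE and 13085 to 20962 in the reference. Of 10 RPE and melanocyte markers, 8 were lower in CPE, and without *Dct*, saturated in the reference on 3 arrays, the summed level was 4323 to 5854 in CPE against 107380 to 127737. The melanin enzyme gene *Tyr* was near background in CPE, where none of the 3 samples passed the flag. The other 9 of these markers were above background in all 3 CPE samples. Of them, *Dct* and *Pmel* lay in the high class of CPE, at the 92.5 and 93.1 percentile. All 8 photoreceptor markers on the array were lower too, with a summed level of 5011 to 6791 in CPE and 173055 to 178209 in the reference. All 8 were above background in all 3 CPE samples. The reference thus carried photoreceptor transcripts beside those of RPE and choroid, and their part in the ratios was not tested.

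Sequences upstream of 4 members are shown because their genes set apart a pair that was lower in CPE and a pair that was not. *Col1a2* and *Col3a1*, of the interstitial fibrils, were both lower in CPE, while *Col8a1* and *Col8a2*, the 2 chains of type VIII collagen, ranked at the 99.5 and 99.1 percentile of the CPE channel and did not pass the test against the reference. The 250 bases upstream of the annotated start of each are from RefSeq (build GRCm38.p6), written 5′ to 3′ on the gene's strand. Capitals mark the CCAAT box (CCAAT), the GC box (GGGCGG) and the TATA box (TATAAA), each searched on both strands, and adjoining GC boxes can overlap.
*Col1a2*, chr6:4505368-4505617, plus strand: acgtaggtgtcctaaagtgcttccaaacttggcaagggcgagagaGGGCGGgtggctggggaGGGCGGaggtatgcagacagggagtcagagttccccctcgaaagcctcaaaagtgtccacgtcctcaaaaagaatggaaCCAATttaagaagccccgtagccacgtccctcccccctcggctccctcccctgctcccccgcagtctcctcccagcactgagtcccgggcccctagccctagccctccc
*Col3a1*, chr1:45311288-45311537, plus strand: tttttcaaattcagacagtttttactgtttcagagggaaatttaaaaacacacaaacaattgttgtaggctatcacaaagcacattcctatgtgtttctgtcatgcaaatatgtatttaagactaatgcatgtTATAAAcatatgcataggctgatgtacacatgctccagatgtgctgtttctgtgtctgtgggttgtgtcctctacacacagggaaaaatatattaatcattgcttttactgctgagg
*Col8a1*, chr16:57754738-57754987, minus strand: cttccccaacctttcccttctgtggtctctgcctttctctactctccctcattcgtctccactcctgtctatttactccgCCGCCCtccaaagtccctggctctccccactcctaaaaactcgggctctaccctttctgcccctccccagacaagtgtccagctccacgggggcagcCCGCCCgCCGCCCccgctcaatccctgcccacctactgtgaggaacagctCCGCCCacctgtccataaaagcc
*Col8a2*, chr4:126286544-126286793, plus strand: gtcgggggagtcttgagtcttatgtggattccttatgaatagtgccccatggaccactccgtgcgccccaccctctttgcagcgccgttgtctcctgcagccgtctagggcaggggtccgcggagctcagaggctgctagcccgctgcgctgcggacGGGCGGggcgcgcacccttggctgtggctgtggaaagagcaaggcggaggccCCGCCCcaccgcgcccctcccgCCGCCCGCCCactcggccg

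Both type VIII genes held 4 GC boxes in this window and neither of the other motifs. *Col1a2* held 2 GC boxes and 1 CCAAT box, and *Col3a1* held only a TATA box, at position -117. Over all 32851 promoter windows of this length, 32.7% held a GC box, 33.8% a CCAAT box and 12.4% a TATA box. Among the 35 windows of the 32 collagen genes with an entry, 19 held a GC box (54.3%), 12 a CCAAT box (34.3%) and 5 a TATA box (14.3%). These matches describe letters only, and nothing was measured at these sites.

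The first question was how strongly collagen genes are expressed in CPE. Following the study's classes, probes were ranked by their CPE signal over the whole array, as high (above the 90th percentile), moderate (50th to 90th), low (10th to 50th) or very low. Of the 80 collagen probes, 9 were high, 37 moderate, 27 low and 7 very low. The high share was 11.2%, where the class holds 10% of the array by definition. The 9 high probes belonged to 8 genes: *Col1a1*, *Col1a2*, *Col4a1*, *Col8a1* (both its probes), *Col8a2*, *Col9a3*, *Col17a1* and *Col18a1*. All 9 were well above background in every CPE sample. In the moderate class 29 of 37 probes were, and 4 were above background in mouse 3 alone, so their class rests on that array. Over all classes, 42 collagen probes (52.5%) were above background in all 3 CPE samples, against 44.9% of all probes, and 51 (63.7%) in all 3 reference channels, against 61.5%.

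**Figure D1:**
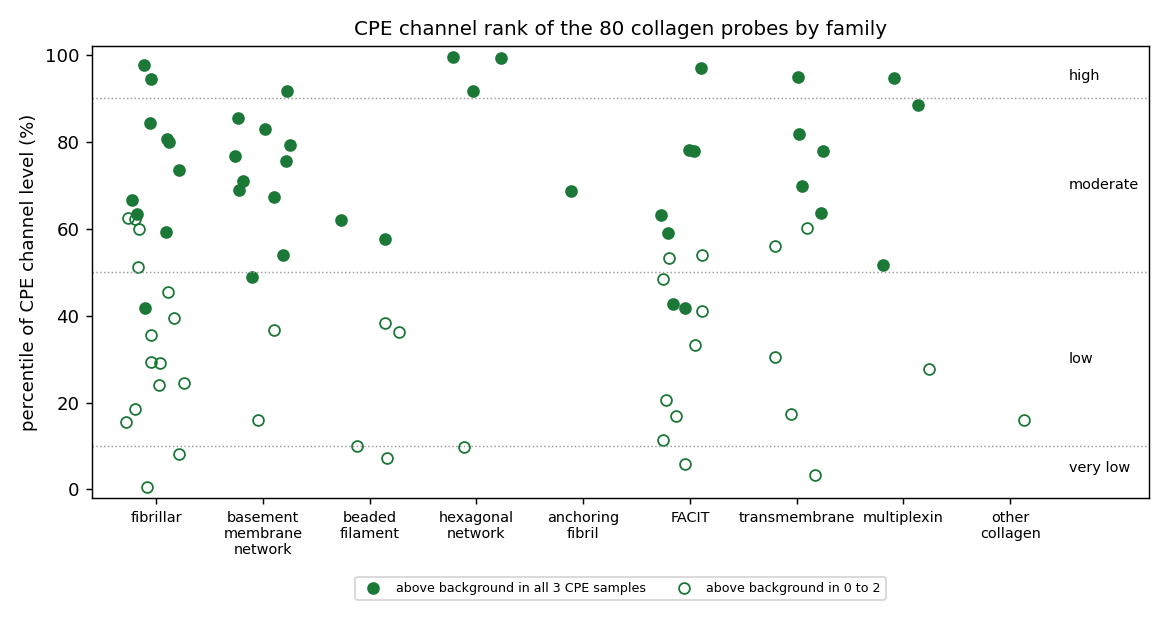
Percentile of the CPE channel level over all array probes (vertical axis, %) for the 80 collagen probes, grouped by collagen family (horizontal axis). Each point is 1 probe, as the mean of 3 mice, and is filled where the probe was well above background in all 3 CPE samples. Dotted lines mark the borders of the expression classes at 10, 50 and 90%, and the 3 hexagonal network points in the high class are both *Col8a1* probes and *Col8a2*.

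The second question was which collagens differ between CPE and the reference. The log2 ratio of CPE over reference was tested against 0 with limma and Benjamini-Hochberg adjustment over 25841 probes with a CPE or a reference signal above background on every array. A probe was called at an adjusted p under 0.05 and at least a 2-fold difference. Of the 80 collagen probes 52 were tested, of which 12 were lower in CPE (23.1%), against 10.2% of all tested probes, and 4 were higher (7.69%), against 7.09%. At any fold, 18 collagen probes were lower (34.6%, against 22.3% of all) and 11 higher (21.2%, against 16.9%). All 16 called probes had the same sign in all 3 mice. The filter matters to these counts. Of the tested probes, 10 passed through the reference channel only, and 4 of the 12 lower calls are among them. Among probes above background in both channels, 8 collagen probes were lower and 4 higher. The shares of all probes given above belong to the wider filter, and none was taken by direction for this one. The median log2 ratio of the tested collagen probes was -0.20 (all tested probes, -0.04), and over all 80 probes, tested or not, it was 0.02 (all probes, 0.0037). Where arrays were median centred in place of loess, the median of all tested probes moved from -0.04 to 0.09, and the split changed to 8 lower and 9 higher. The higher count also turned on single mice, with 2 higher probes without mouse 1 and 8 without mouse 3.

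With the brightest probe standing for each gene, 36 of the 40 genes were tested. Of these, 10 were lower in CPE (27.8%, against 11.2% of all tested genes) and 2 were higher (5.56%, against 8.11%). Of the lower genes, *Col6a3*, *Col11a1* and *Col19a1* passed the filter through the reference only, and with both channels required 7 genes were lower and 2 higher. The shares of 27.8% and 11.2% belong to the wider filter, and no share of all genes was taken with both channels required. The lower genes were *Col1a1*, *Col1a2*, *Col3a1* and *Col11a1* of the fibrillar family, *Col4a4* and *Col4a6* of the basement membrane, *Col6a3* of the beaded filaments, and *Col9a1*, *Col12a1* and *Col19a1* of the FACITs (fibril-associated collagens with interrupted triple helices). The higher genes were *Col9a3*, also a FACIT, and *Col13a1*, a transmembrane collagen.

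**Figure D2:**
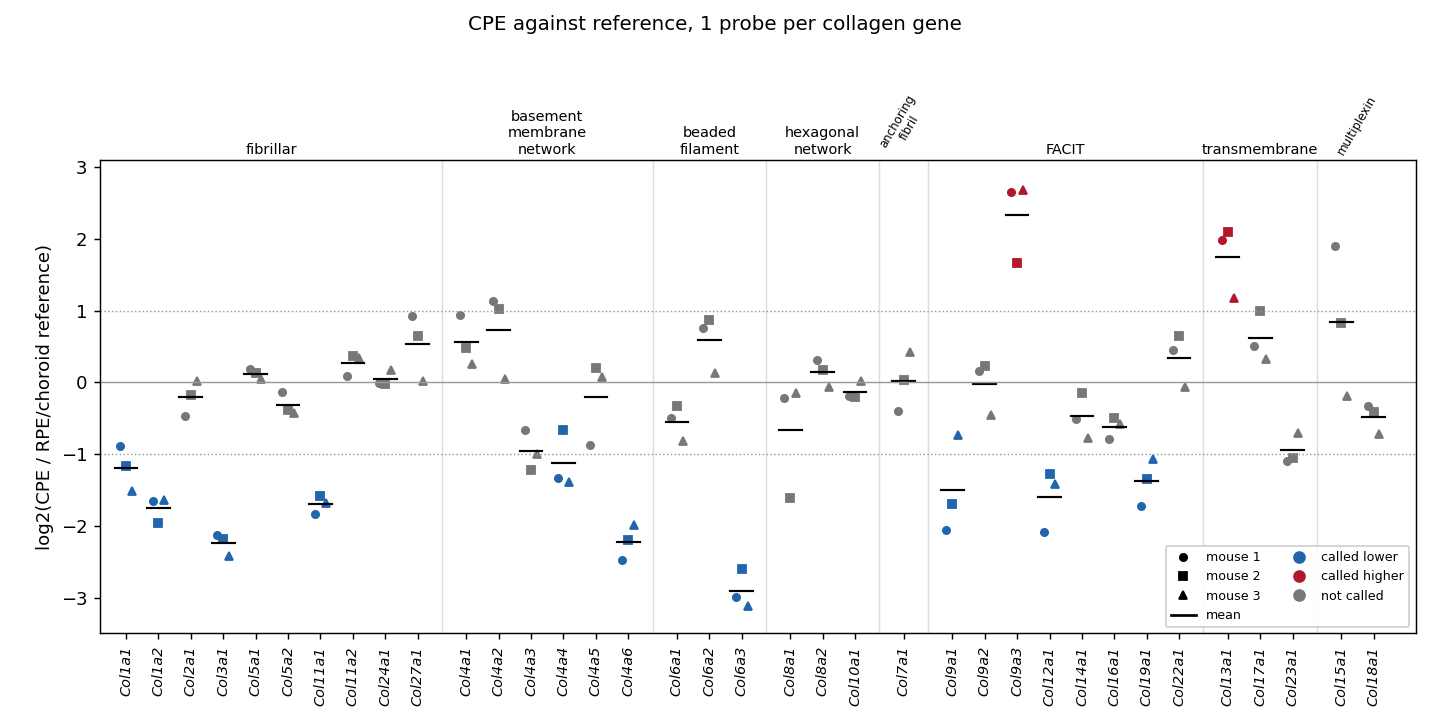
Log2 ratio of CPE over the RPE/choroid reference (vertical axis) for the brightest probe of each of the 36 tested collagen genes, by family (horizontal axis). Symbols are mice 1 to 3, bars their mean, and dotted lines mark a 2-fold difference. *Col6a3* has the lowest mean, -2.91, and *Col9a3* the highest, 2.34, and genes of the same family lie on both sides of 0. The *Col6a3* probe passed the filter through the reference only.

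By their brightest probes, 10 of the 11 fibrillar genes were tested. Of these, 4 were lower in CPE (40%, against 11.2% of all tested genes) and 6 did not pass. *Col11a1*, among the 4, passed the filter through the reference only, and *Col5a3* was tested at its dimmer probe. *Col3a1* encodes the chain of type III collagen, found with type I in loose connective tissue. Its level on the log2 scale was 9.63, 9.57 and 9.41 in the CPE of mice 1, 2 and 3, and 11.76, 11.76 and 11.83 in the reference channel of the same arrays. Each CPE value lay over 2 units below every reference value. Its ratio averaged -2.24 ± 0.15 on the log2 scale (SE; adjusted p = 5.16e-05 by limma). This probe lies at chr1:45293290-45293349 in build mm8, the build of the scanner files. The other *Col3a1* probes were not tested.

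Type I collagen, the main collagen of stroma, is a trimer of *Col1a1* and *Col1a2* chains. The *Col1a2* level was 12.43, 11.98 and 12.31 in CPE and 14.08, 13.93 and 13.94 in the reference. It thus lay in the high class of CPE and was still lower than in the reference, with no overlap. *Col1a2* had a mean log2 ratio of -1.75 ± 0.16 (SE; adjusted p = 0.000167 by limma; chr6:4490619-4490678 in mm8). The brightest *Col1a1* probe had levels of 11.60, 11.24 and 10.60 in CPE and 12.48, 12.40 and 12.12 in the reference. Its mean log2 ratio was -1.19 ± 0.18 (SE; adjusted p = 0.00174 by limma; chr11:94767851-94767910), but a second *Col1a1* probe was called in the opposite direction and is described with the probes of 1 gene. With median centring these lower calls of *Col1a1* (-0.42) and *Col1a2* (-0.90) were lost. Within each array the *Col1a1* ratio was above the *Col1a2* ratio, by 0.77, 0.79 and 0.12, a difference that was not tested.

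*Col11a1*, whose chain nucleates thin fibrils with type V collagen, had a mean log2 ratio of -1.70 ± 0.15 (SE; adjusted p = 0.000163 by limma). Its ratios were -1.83, -1.59 and -1.69 in mice 1, 2 and 3, and the CPE signal was above background in 2 of 3 samples. Its partner *Col11a2* had ratios of 0.09, 0.36 and 0.34 and was not called. The gap between the chains was 1.92, 1.95 and 2.03 in the 3 arrays. Type V chains did not pass either: *Col5a1* had a mean of 0.12 (0.05 to 0.19), *Col5a2* -0.32 (-0.43 to -0.13) and the tested *Col5a3* probe 0.38 (-0.04 to 0.79). *Col2a1*, the collagen of cartilage and vitreous, had probe means of -0.20 and -0.57. *Col24a1* (0.05 and -0.10) and *Col27a1* (0.53) were also not called.

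Markers of other cell types were read beside these genes. Of 10 fibroblast and stroma markers, 4 were lower in CPE (*Dcn*, *Lum*, *Mfap5* and *Pi16*), none was higher, and the median log2 ratio was -0.59. *Pdgfra* had a ratio of 0.65 with an adjusted p of 0.0144, under 2-fold. The summed level was 38663 to 42362 in CPE and 121111 to 137499 in the reference, of which *Dcn*, saturated in the reference on 2 arrays, made up most of the gap. Without *Dcn* it was 33027 to 35203 in CPE and 40676 to 43849 in the reference. In CPE, 6 of the 10 were in the high class, among them *Dcn*, *Lum* and *Mgp*, whose log2 ratio was 0.28, and none was below background in all CPE samples. Endothelium markers had 3 of 9 higher and none lower, with summed levels of 10887 to 14213 in CPE and 11137 to 12555 in the reference. Of 10 pericyte and smooth muscle markers, 1 was higher and 2 lower. Their summed level was 16235, 7664 and 15875 in the CPE of mice 1, 2 and 3, and 19793, 21475 and 21873 in the reference of the same arrays. Macrophage markers were lower for 5 of 7 tested, and none was higher. The part of these cells in the collagen values was not tested, and in dissected tissue fewer cells of a type and less RNA per cell cannot be told apart.

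**Figure D3:**
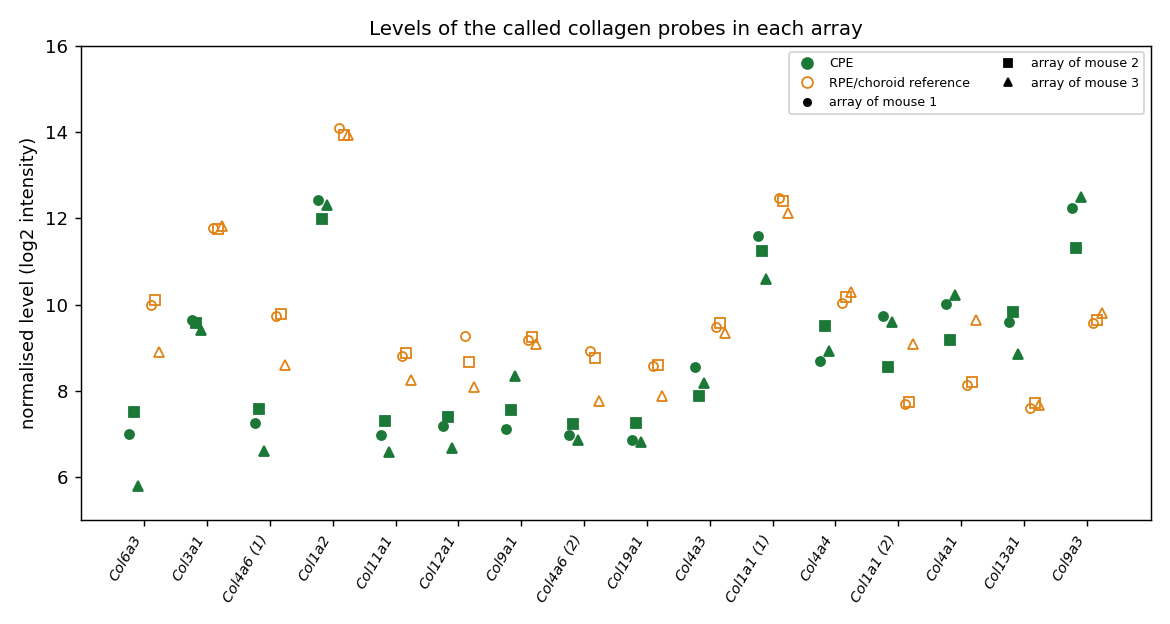
Normalised log2 intensity (vertical axis) of the 16 called collagen probes, ordered by ratio (horizontal axis), in CPE (filled) and in the reference channel (open) of the same 3 arrays. Symbols mark the arrays of mice 1 to 3, and (1) and (2) mark called probes of the same gene. *Col3a1* lies at 9.41 to 9.63 in CPE and 11.76 to 11.83 in the reference, while *Col9a3* lies higher in CPE, at 11.30 to 12.50.

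Type IV collagen has 6 genes, arranged in the genome as head-to-head pairs, *Col4a1* with *Col4a2*, *Col4a3* with *Col4a4* and *Col4a5* with *Col4a6*. The chains of *Col4a1* and *Col4a2* form the network present in nearly all basement membranes. The brightest *Col4a1* probe, in the high class, had ratios of 0.94, 0.48 and 0.26, and a second probe had 1.87, 0.96 and 0.59. The second was called higher in CPE, with a mean log2 ratio of 1.14 ± 0.25 (SE; adjusted p = 0.00881 by limma), and the first was not, at 0.56 with an adjusted p of 0.0422. Without mouse 1 the second probe's call was lost, at 0.78. Both *Col4a2* probes had means of 0.74 and 0.75, with adjusted p-values of 0.0387 and 0.0263 but under 2-fold. Every *Col4a1* and *Col4a2* ratio was thus above 0 in all 3 mice. The pair differed by -0.19, -0.56 and 0.22 within the arrays (*Col4a1* minus *Col4a2*, brightest probes), with no common sign.

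The other 4 chains form networks known from specialised basement membranes, such as those of the kidney glomerulus, lens and eye. *Col4a6* was lower in CPE by 2 of its 3 probes. The CPE signal of the second of these, with a mean of -1.47, was above background in 2 of 3 samples. The remaining probe had a mean of -0.26 and was not called. At its brightest probe the level was 7.26, 7.58 and 6.61 in CPE and 9.74, 9.77 and 8.59 in the reference, without overlap. The mean log2 ratio of *Col4a6* was -2.22 ± 0.17 (SE; adjusted p = 7.33e-05 by limma; chrX:136411815-136411874 in mm8). Its paired neighbour *Col4a5* had ratios of -0.88, 0.20 and 0.07 and did not pass, and *Col4a6* lay below *Col4a5* by 1.60, 2.39 and 2.06 in the 3 arrays. The 2 tested *Col4a3* probes had means of -1.26, called lower, and -0.96, not called, and all 6 ratios were below 0. *Col4a4* had 1 probe called lower, at -1.13, and 1 at 0.87. With median centring the lower calls of *Col4a3* (-0.88) and *Col4a4* (-0.60) were lost, and that of *Col4a6* was not.

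Type VI collagen builds beaded filaments around cells from *Col6a1*, *Col6a2* and *Col6a3* chains. *Col6a3* had the lowest log2 ratio of the tested collagen probes. Its level was 7.01, 7.51 and 5.78 in CPE and 9.999, 10.11 and 8.90 in the reference, so all CPE values lay below all reference values. The mean log2 ratio was -2.91 ± 0.17 (SE; adjusted p = 2.46e-05 by limma; chr1:92597492-92597551 in mm8), and the CPE signal was above background in 2 of 3 samples. The probe thus passed the filter through the reference only, which favours lower ratios, and the lack of overlap is no separate support. *Col6a1* had a mean of -0.55 (adjusted p = 0.0324) and *Col6a2* of 0.59 (adjusted p = 0.0430), both under 2-fold and of opposite sign. *Col6a3* lay below *Col6a1* by 2.49, 2.28 and 2.30 and below *Col6a2* by 3.76, 3.47 and 3.24 within the arrays. The other 2 *Col6a3* probes were very low in CPE and not tested.

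Type VIII collagen forms hexagonal lattices and is known from the Descemet membrane of the cornea and from vessel walls. Both of its genes were in the high class. *Col8a2* ranked at the 99.5, 99.5 and 97.9 percentile of the array in mice 1, 2 and 3, and its level was 14.06, 13.99 and 12.50 in CPE and 13.75, 13.82 and 12.56 in the reference. The groups overlapped, and the mean log2 ratio was 0.14 ± 0.16 (SE; adjusted p = 0.512 by limma). With median centring the *Col8a2* mean rose to 1.06 (adjusted p = 0.0594 by limma) and was still not called. The brightest *Col8a1* probe ranked at the 99.7, 98.9 and 99.8 percentile, with levels of 14.39, 13.22 and 14.69 in CPE and 14.60, 14.83 and 14.84 in the reference. Its mean log2 ratio was -0.66 ± 0.29 (SE; adjusted p = 0.108), and the ratio of mouse 2 alone, -1.61, lay below -1.

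The second *Col8a1* probe, at the 91.6 percentile on average, ordered the mice differently. Its CPE level was lowest in mouse 1, at 9.75, and 11.30 and 10.79 in mice 2 and 3, while the reference stayed at 10.83 to 11.01. The spread of *Col8a1* thus lay in the CPE channel for both probes, with an SD of 0.78 and 0.79 in CPE against 0.13 and 0.09 in the reference. The mean of this probe was -0.32, and with median centring both *Col8a1* means changed sign, to 0.27 and 0.33. *Col10a1*, of the growth plate of bone, is the third gene of the hexagonal network family. It was very low in CPE and had a mean log2 ratio of -0.13. *Col7a1*, whose product anchors skin epithelium to its stroma, had ratios of -0.40, 0.03 and 0.42 and a mean of 0.02 (adjusted p = 0.949).

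FACITs bind to the surface of fibrils. Type IX collagen, best known from cartilage and vitreous, is a trimer of *Col9a1*, *Col9a2* and *Col9a3* chains, and its genes had ratios of 2.34, -0.02 and -1.497 for *Col9a3*, *Col9a2* and *Col9a1*. *Col9a3* was in the high class. Its level was 12.23, 11.30 and 12.50 in CPE and 9.57, 9.64 and 9.82 in the reference, with no overlap. The mean log2 ratio of *Col9a3* was 2.34 ± 0.23 (SE; adjusted p = 0.000252 by limma), the highest of the tested collagen probes. The probe spans chr2:180545256-180545838 in mm8.

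*Col9a1* had levels of 7.12, 7.55 and 8.35 in CPE and 9.18, 9.24 and 9.09 in the reference, and was lower in CPE, with a mean log2 ratio of -1.497 ± 0.25 (SE; adjusted p = 0.00297 by limma). Its ratio was nearest to 0 in mouse 3, at -0.74. *Col9a2* had ratios of 0.15, 0.22 and -0.45 and did not pass. The *Col9a3* ratio lay above that of *Col9a1* by 4.71, 3.36 and 3.43 and above that of *Col9a2* by 2.51, 1.44 and 3.14 within the arrays. The *Col9a2* ratio lay above that of *Col9a1* by 2.21, 1.92 and 0.29, a gap that was small in mouse 3. Each chain had 1 probe, and these gaps were not tested.

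*Col12a1* and *Col19a1* were the other FACIT genes called lower. *Col12a1*, expressed in dense connective tissue, had ratios of -2.08, -1.28 and -1.42 at its brightest probe, with a mean of -1.59 ± 0.20 (SE; adjusted p = 0.000718 by limma). *Col19a1* had ratios of -1.72, -1.35 and -1.07 and a mean of -1.38 ± 0.18 (SE; adjusted p = 0.000880), and its CPE signal was above background in 1 of 3 samples. The 3 further *Col19a1* probes were not tested. *Col14a1* (-0.47), *Col16a1* (-0.62) and *Col22a1* (0.35) were not called, and *Col20a1* was not tested.

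Transmembrane collagens sit in the plasma membrane and shed their ectodomains. *Col13a1*, found at cell adhesion sites, was higher in CPE. Its level was 9.58, 9.82 and 8.85 in CPE and 7.59, 7.72 and 7.68 in the reference, and the ranges did not overlap. The mean log2 ratio of *Col13a1* was 1.75 ± 0.21 (SE; adjusted p = 0.000657 by limma; chr10:61233886-61233945 in mm8). A second *Col13a1* probe was not tested and had ratios of 1.49, 0.30 and 0.30 in mice 1, 2 and 3. *Col17a1*, a hemidesmosome protein that ties epithelium to its basement membrane, had a high-class probe at the 94.8 percentile and a moderate one. Their mean ratios were 0.62 and 0.69, with adjusted p-values of 0.0295 and 0.0421 but under 2-fold, and all 6 ratios were above 0. *Col23a1* had means of -0.95 and -0.45, the first with an adjusted p of 0.00319, and was not called. *Col25a1*, best known from neurons, was not tested.

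Multiplexins are basement membrane proteoglycans whose ends are cleaved to anti-angiogenic fragments. *Col18a1*, the source of endostatin, was in the high class at the 94.4, 94.6 and 94.2 percentile in mice 1, 2 and 3, the narrowest range among the 9 high probes. Its level was 11.25, 11.26 and 11.13 in CPE and 11.59, 11.67 and 11.85 in the reference. The mean log2 ratio of -0.49 ± 0.16 (SE; adjusted p = 0.0449) was under 2-fold, and with median centring it turned to 0.24. The second *Col18a1* probe had a mean of -0.19. *Col15a1* had ratios of 1.90, 0.83 and -0.19, the widest spread of the tested collagen probes, and did not pass (mean 0.85, adjusted p = 0.0886).

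Over the tested collagen probes the spread between arrays lay more in the CPE channel. The median SD over the 3 arrays was 0.48 in CPE and 0.19 in the reference for collagen probes, and 0.36 and 0.21 for all tested probes. The median SD of the log2 ratio was 0.33 for collagen probes and 0.26 for all.

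*Col20a1*, *Col25a1* and *Col28a1* had no tested probe. In all 28 collagen probes were not tested, and 17 of them were above background in CPE in mouse 3 alone. For 4 dim probes, 1 channel was above background on some arrays and the other on none. On average the reference was 1.10-fold brighter for 1 *Col3a1* probe and 1.22-fold for 1 *Col25a1* probe. CPE was on average 1.18-fold brighter for another *Col25a1* probe and 1.00-fold for 1 *Col27a1* probe. In the dimmer channel each array counted with the higher of the probe's own signal and the lowest signal called above background, after loess and Aquantile. That lowest signal came into play only for the *Col27a1* probe. These averages include arrays with neither channel above background, so they are no bounds on a difference, and none of the 4 reached 2-fold.

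Of the 40 genes, 29 had several probes and 14 had several tested ones. In 5 genes the tested ratios were at least 2-fold apart (*Col1a1*, *Col4a4*, *Col4a6*, *Col11a1* and *Col12a1*), and in 3 they differed in sign (*Col1a1*, *Col4a4* and *Col24a1*). Expression classes of probes of the same gene lay at least 2 classes apart for *Col1a1*, *Col1a2* and *Col2a1*. The *Col1a1* probes were the clearest case. The probe nearest the 3′ end had ratios of -0.88, -1.16 and -1.52, and the probe 1023 bp upstream in the genome had 2.04, 0.81 and 0.52. Both were called, in opposite directions, the upstream probe with a mean of 1.12 ± 0.28 (SE; adjusted p = 0.0166 by limma). Its call was lost without mouse 1, at 0.66. For *Col4a4* the 3′ probe had ratios of -1.34, -0.67 and -1.39, and the probe 4366 bp upstream had 1.27, 0.96 and 0.38.

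In each of these 5 genes the most 3′ probe had the lowest ratio in every mouse. *Col4a6* showed it over 3 probes, with means of -2.22 at the 3′ probe, -1.47 at 826 bp and -0.26 at 1442 bp upstream. For *Col11a1* the 3′ probe had a mean of -1.70 and the probe 129066 bp upstream -0.11, and for *Col12a1* the values were -1.59 and -0.36 at 5058 bp. The upstream probes of both genes were above background in CPE in 1 of 3 samples. Over the 14 genes, the most 3′ tested probe had a lower mean ratio than the most 5′ one in 11 (78.6%), against 49.2% of 5737 genes with several tested probes. Among genes whose 3′ probe had a ratio below 0, these were 8 of 11 collagen genes (72.7%) and 67.6% of 3052 genes. The median difference, 5′ minus 3′, was 0.69, 0.33 and 0.37 in mice 1, 2 and 3 for the collagen genes, and 0.08, -0.18 and 0.09 for all genes. Why the probes differ was not tested.

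**Figure D4:**
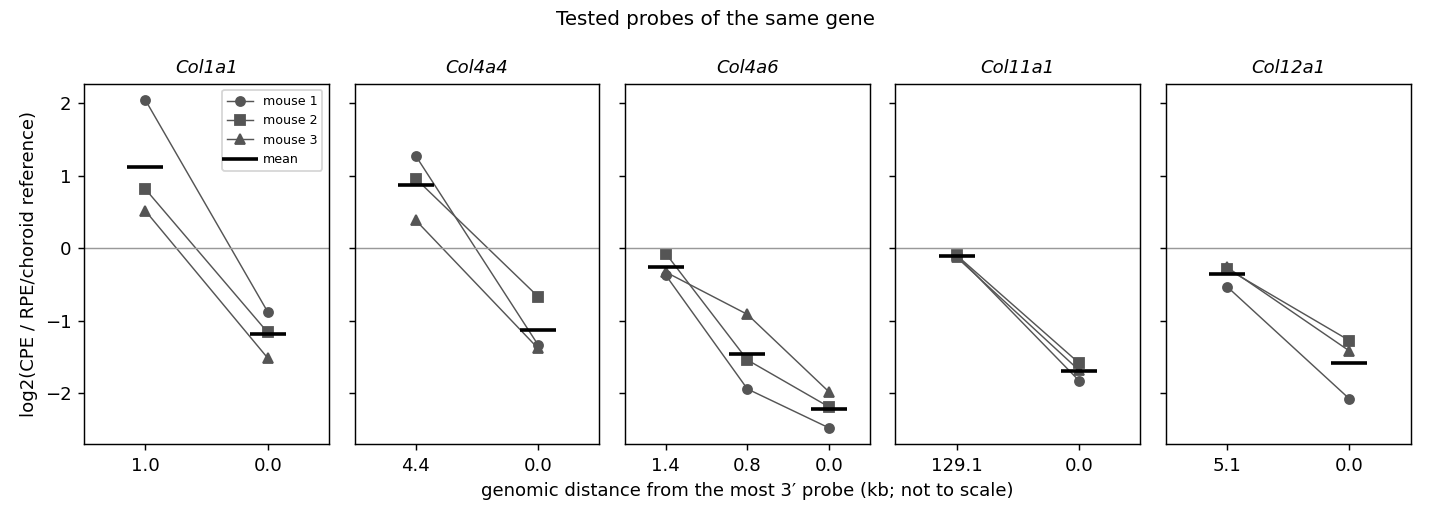
Log2 ratio of CPE over the RPE/choroid reference (vertical axis) at the tested probes of the 5 genes whose probes were at least 2-fold apart. Probes run from 5′ on the left to 3′ on the right, with the genomic distance from the most 3′ probe in kb below each (not to scale); symbols and lines are mice 1 to 3 and thick bars their mean. The 3′ probe has the lowest ratio in every mouse, and the *Col1a1* and *Col4a4* probes lie on both sides of 0.

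Collagen chains are hydroxylated, folded and glycosylated in the endoplasmic reticulum, secreted, trimmed by proteases and crosslinked outside the cell. A list of 43 genes for these steps and for collagen receptors was set against the reference in the same fit, with the brightest probe for each gene. The list was chosen with earlier results of these data known, so its counts and medians are descriptive only. Of 37 tested genes, 4 were higher in CPE (10.8%, against 8.11% of all tested genes) and 1 was lower (2.7%, against 11.2%). The median log2 ratio was 0.39, against -0.04 for all tested genes, and 10 of the 43 genes lay in the high class, which holds 12.7% of all genes by their brightest probe. That median lies on the other side of 0 from the median of the tested collagen genes by their brightest probe, -0.26. Those collagen genes include *Col6a3*, *Col11a1* and *Col19a1*, which passed the filter through the reference only. Over all 80 collagen probes, tested or not, the median was 0.02.

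For modification and folding, 15 of 16 genes were tested, 1 was higher and 1 lower. *Plod2*, the lysyl hydroxylase of telopeptides, was higher, with ratios above 2 in mouse 1 and of 1.69 and 0.74 in mice 2 and 3, and a mean of 1.52 (adjusted p = 0.00319 by limma). *Colgalt2*, a collagen galactosyltransferase, was lower, with ratios of -1.31, -1.05 and -0.95 and a mean of -1.10 (adjusted p = 0.00148). The collagen chaperone gene *Serpinh1* (98.9 percentile) and the prolyl isomerase gene *Ppib* (99.4) were in the high class, with mean log2 ratios of 0.69 and 0.39 that were not called. *P4ha1* and *P4hb*, of prolyl hydroxylase, were high too, with 0.75 and -0.38.

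For secretion and processing, 9 of 12 genes were tested and 1 was higher. *Pcolce2*, an enhancer of procollagen C-proteinase, had ratios of 2.23, 2.21 and 1.45 and a mean of 1.96 (adjusted p = 0.000299 by limma). Its relative *Pcolce*, at the 99.3 percentile, had a mean of 0.45 and was not called. Of 5 crosslinking genes, the lysyl oxidase relative *Loxl3* was higher, with a mean of 1.05 (adjusted p = 0.00693), a call lost without mouse 1 (0.94) or mouse 2 (0.87). *Lox* itself had ratios of -0.48, 0.02 and -1.28. Of 8 tested receptor genes, 1 was higher: *Ddr1*, the collagen receptor kinase of epithelia, had ratios of 1.68, 1.61 and 1.34 and a mean of 1.54 (adjusted p = 0.000305). *Ddr2*, its relative of mesenchymal cells, had a mean of -0.74, and *Itga11*, a fibroblast collagen integrin, -0.74, neither at 2-fold.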

How the data were processed

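Scanner images were read by the authors with Agilent Feature Extraction, version 9.5.3.1. The deposited tables give the linear intensity of every spot for the red and the green channel, its local background, flags, and a log10 ratio of the processed red over green intensity. A deposited table of the series holds log2 levels that the authors normalized between arrays with Aquantile. Its rank correlation with the red channel was 0.998, 0.998 and 0.9997 on the 3 arrays, so it holds CPE levels and was an alternative. With limma 3.58.1 in R 4.3.3, intensities were corrected by normexp with an offset of 50 and normalized by loess within arrays. All spots entered normexp and Aquantile, and control spots had no weight in the loess fit. Control spots and flagged outliers were left out afterwards, and repeated spots were averaged to 1 value a probe. Levels are those after Aquantile. The model had an intercept alone. Its code was run on simulated data with independent noise and no dye or array effects. That run therefore says nothing about such effects here. Classes were made as the study's methods describe, from log2 red intensity without background correction.

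Positions of probes follow the scanner files (mm8). Exons and introns are not stated, since an mm8 annotation was not used here. Probe sequences were not used. Named genes were the 10 largest calls in each direction, high-class genes, and genes whose tested probes were at least 2-fold or whose classes were at least 2 apart, with up to 5 calls in each direction for the pathway lists; the values of all other tested collagen genes are given too. Members and gene lists were chosen with earlier results of these data known. The number of arrays limits the precision. Human arrays were not analysed here.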

Additional observations from a re-analysis of the deposited data

How the results depend on the processing

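Collagen probes were called lower in 12 and higher in 4 cases. No background correction and no filter on dim probes gave the same counts, the scanner software's log ratio gave 15 and 6, both channels above background 8 and 4, and array weights 13 and 6. Median centring gave 8 lower and 9 higher probes. Shares of all probes and genes by direction were taken for the main setting only, so the counts of other settings have none beside them. By gene (10 lower, 2 higher), median centring gave 7 and 5. Leaving out each mouse gave 12 to 13 lower and 2 to 8 higher probes, and 10 to 11 lower and 2 to 4 higher genes. The 2 higher probes were obtained without mouse 1, where the upstream *Col1a1* probe and the *Col4a1* probe were lost, and the 8 without mouse 3. Of the modification, secretion, crosslinking and receptor genes, 4 higher became 8 with the scanner ratio and 10 with median centring, and 1 lower became 0 without background correction, 2 with the scanner ratio, 0 with median centring and 2 with array weights. Leaving out a mouse gave 3 to 4 higher and 1 to 2 lower of them. *Loxl3* was also lost without background correction (0.88) and with median centring (0.99), as was *Colgalt2* (-0.96 in each).

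Of the single ratios, 268 stayed on the same side of the threshold with the same sign, 12 fell short, 7 passed, and 4 changed sign without being called: with median centring *Col18a1* (0.24) and both *Col8a1* probes (0.27 and 0.33), and without mouse 1 the second *Col8a1* probe, which ranged from -0.623 to 0.0651 as each mouse was left out. Median centring brought *Col17a1* (1.31) and the brightest *Col4a1* probe (1.16) past the threshold, and the higher *Col4a4* probe passed with median centring (1.34), the scanner ratio (1.15), array weights (1.04) and without mouse 3 (1.12). A second *Col12a1* probe passed with the scanner ratio (-1.30). Genes with tested probes at least 2-fold apart numbered 5, but 12 without the filter and 3 with both channels above background. The 9 high probes became 4 when only probes above background in CPE were ranked, and 8 or 9 in every other setting. The causes were not tested. No paired analysis was possible because the arrays form 1 group. Signal over background limits the dim probes most on the array of mouse 2 in the CPE channel.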
